A study of Homo sapiens with 2 samples.

Results

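The KLF genes encode Krüppel-like factors, transcription factors that read CACCC and GC-rich DNA through zinc fingers near their carboxyl ends. GFI1 is itself a zinc-finger repressor that binds DNA with an AATC core and brings histone demethylase and deacetylase complexes to blood cell genes. In myeloid cells KLF2 is known for holding back inflammatory activation, KLF4 for promoting monocyte differentiation, and KLF6 for inflammatory gene expression in macrophages. These 8 genes, KLF2, KLF3, KLF4, KLF6, KLF7, KLF9, KLF10 and KLF13, were examined among 20037 protein-coding genes for GFI1 peaks with a midpoint inside the gene or within 50 kb of it. The set was selected on peak positions and scores already seen in these same lists, so the peak counts below describe the genes and test nothing.

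The peaks came from chromatin immunoprecipitation followed by sequencing in NB4, an established human acute promyelocytic leukemia cell line. One library was made with the antibody ab21061 and another with sc8558, both labelled as directed at GFI1. Both used cells with no stated treatment or genetic change, fixed in 1% formaldehyde for 10 min, and 5 µg of antibody, and there was 1 library per antibody. The written protocol names an antibody to the PML/RARα fusion and one title reads GFI2, which goes against the antibody labels; the antibody labels were followed. The lists held 7687 ab21061 peaks and 7562 sc8558 peaks on hg38. Their scores, the authors' own values from the peak caller, ran from 50.01 to 3100 and were used to rank, filter and describe peaks within a list, not to compare levels between the libraries. A region where a peak of each list overlapped by at least 1 bp is called shared, and the series held 4853 of them. Depth is unknown, no control library was analysed here, and without replicates no test between the antibodies was possible.

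The windows of the 8 genes held 9 ab21061 peaks and 10 sc8558 peaks, which paired into 8 shared regions and left 3 peaks found with a single antibody. KLF2, KLF3, KLF4, KLF6, KLF7 and KLF13 had a shared region, 6 of 8 genes. Among all protein-coding genes 24.3% had a shared region in such a window. Peaks of ab21061 lay in the windows of 6 of 8 genes, against 31.7% of all genes, and peaks of sc8558 in those of 6 of 8, against 32.4%. KLF9 and KLF10 had no peak of either list. Nothing is read from these counts, since the genes were chosen with the peaks known.

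The promoters of KLF2, KLF4 and KLF6 are shown because these were the genes with a peak within 10 kb of the annotated gene start. For KLF4 this was a peak of sc8558 alone. KLF7 had peaks within 10 kb of listed starts inside the gene only, and its promoters are not shown. Each line gives the 250 bases before the start, 5′ to 3′ on the gene's own strand, from RefSeq on GRCh38.p14, with every AATC, or GATT on the other strand, in capitals. The windows are chr19:16324576-16324825 on the plus strand for KLF2, chr9:107489770-107490019 on the minus strand for KLF4 and chr10:3785210-3785459 on the minus strand for KLF6.
KLF2: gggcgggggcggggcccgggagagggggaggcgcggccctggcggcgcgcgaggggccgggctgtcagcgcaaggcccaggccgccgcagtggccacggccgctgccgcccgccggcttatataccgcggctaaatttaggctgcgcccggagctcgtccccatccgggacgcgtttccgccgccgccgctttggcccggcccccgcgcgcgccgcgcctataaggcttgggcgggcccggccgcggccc
KLF4: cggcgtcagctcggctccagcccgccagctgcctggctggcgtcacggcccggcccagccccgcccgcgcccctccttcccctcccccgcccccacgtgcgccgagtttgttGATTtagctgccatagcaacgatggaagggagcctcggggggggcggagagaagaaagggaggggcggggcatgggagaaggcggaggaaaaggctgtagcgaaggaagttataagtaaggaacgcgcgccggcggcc
KLF6: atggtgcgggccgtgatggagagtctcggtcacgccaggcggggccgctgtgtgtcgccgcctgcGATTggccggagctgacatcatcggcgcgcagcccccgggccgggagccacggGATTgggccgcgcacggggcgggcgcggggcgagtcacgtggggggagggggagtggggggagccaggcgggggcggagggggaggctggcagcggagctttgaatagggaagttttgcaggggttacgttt

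None of these 3 stretches was covered by a peak. The nearest peaks lay 3.26 kb away for KLF2, 8.75 kb for KLF4 and 1.37 kb for KLF6. Those of KLF2 and KLF6 were shared, but for KLF4 the nearest shared region was 26.7 kb away. The KLF2 stretch held 0 matches to AATC on either strand, the KLF4 stretch 1 and the KLF6 stretch 2. The promoter table lists 9 start sites for 6 of the 8 genes, KLF7 with 4 of them. KLF3 and KLF10 were not matched in it. The core occurred in all of the listed promoters except that of KLF2, and in 61.5% of the 22183 promoters of protein-coding genes. A longer form, AAATCAC, was in 0 of the 9 and in 2.33% of all. The KLF core CACCC was in 3 of the 9, in KLF7 and KLF13, against 58.4% of all. The ETS core GGAA was in 8, against 92.5%, and the RUNX core TGTGGT in 1, a KLF7 promoter, against 9.36%. The 250 bases were 80.0% G or C in KLF2, 69.2% in KLF4 and 72.4% in KLF6, against a median of 62.0% over all promoters. Among the others KLF13 had 78.8%, the 4 KLF7 promoters from 41.6 to 72.0% and KLF9 32.4%. These are matches of short letters in these windows and were not taken as binding sites.

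KLF6 held the region with the highest scores of the group. It lay on chromosome 10 from 3782578 to 3783840, inside the gene (3775996 to 3785209), and its midpoint was 2.00 kb downstream of the start. The score was 395.88 in the ab21061 list, rank 332, and 461.28 in the sc8558 list, rank 229. Both peaks began at the same base, and 1187 bp were common to both, which was all of the sc8558 peak and 94.0% of the ab21061 peak. Ordered by the poorer of the pair of ranks, this region was number 259 of the 4853 shared regions, within the top 5.34%. Regions placed that high or higher lay inside 0.629% of all protein-coding genes, and within 5 kb of a listed start in 0.353% of the 15843 genes with a listed start. Those cut-offs were set from this region, in a gene chosen with its peaks known, so the shares do not measure how rare it is. No other peak of either list lay in the KLF6 window, and the next shared region was 104 kb from the gene, with scores of 75.24 with ab21061 and 65.02 with sc8558.

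KLF2, which is also known for keeping T cells quiescent and endothelium uninflamed, had the most regions in its window, 3. That was 1 gene of 8 with 3 or more, against 1.82% of all genes. The main one, on chromosome 19 from 16328086 to 16329102, crossed the far end of the gene (16324826 to 16328685, plus strand). Its midpoint was 3.77 kb downstream of the start and 0.0910 kb short of the end. It scored 146.8 with ab21061 (rank 1655) and 126.52 with sc8558 (rank 1966), number 1460 of the shared regions. The remaining pair lay 38.0 and 43.2 kb beyond the gene, inside EPS15L1, a gene for an endocytic adaptor. From 16366255 to 16367134 the scores were 66.61 with ab21061 and 54.12 with sc8558, and from 16371439 to 16372274 they were 87.89 with ab21061 and 81.77 with sc8558. An end of EPS15L1 was nearer to both, at 11.4 and 16.6 kb. Of the 3, only the region at the end of KLF2 lay closer to KLF2 than to another protein-coding gene.

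**Figure D1:**
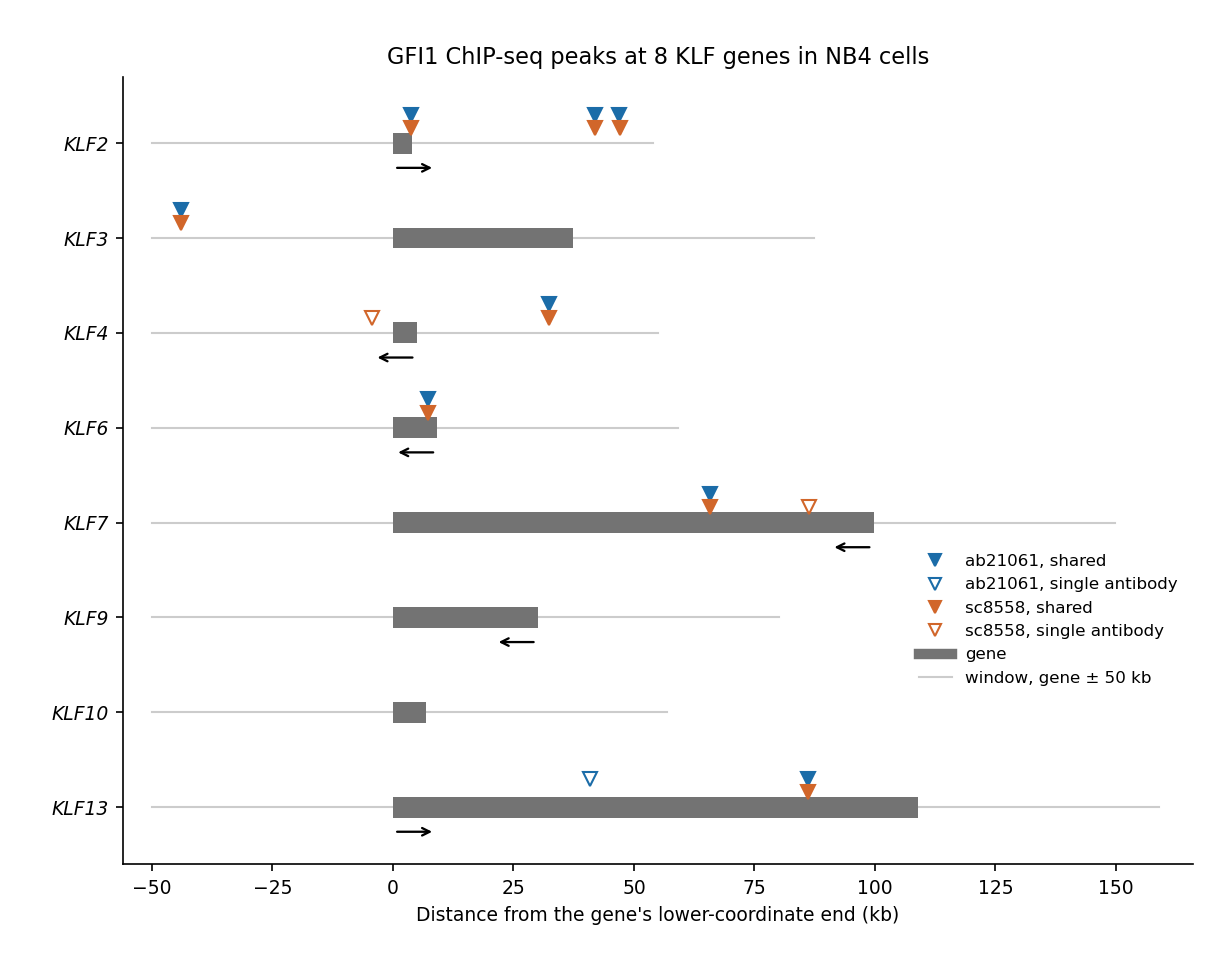
Positions of peaks at the 8 KLF genes. The horizontal axis gives kb from the lower-coordinate end of each gene; grey bars are genes, thin lines the windows, arrows the direction of transcription where listed, and triangles peak midpoints (blue ab21061, orange sc8558, open where found with a single antibody). Peaks lie in the windows of 6 genes, in pairs at 8 places, and KLF9 and KLF10 have 0.

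KLF4, KLF7, KLF13 and KLF3 had 1 shared region each, all with scores below 100 in both lists. At KLF4, better known as a factor used in reprogramming cells to pluripotency, it lay 27.4 kb upstream of the start on chromosome 9 from 107516734 to 107517666, with scores of 58.53 with ab21061 and 58.13 with sc8558. KLF4 also had a peak of sc8558 alone, from 107480081 to 107481022, 4.30 kb beyond the finish of the gene, with a score of 89.94 (rank 3317). The nearest ab21061 peak to it was 35.7 kb away. Of sc8558 peaks with a score within 10% of that value, 70.2% were overlapped by ab21061.

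KLF7, known for its part in neuron development, had a region inside the gene on chromosome 2 from 207139555 to 207140196. The scores were 54.32 with ab21061 (rank 6783) and 61.11 with sc8558 (rank 5658), near the lower limit of both lists. It lay 33.98 kb downstream of the upper-coordinate end of the gene, which is not among the starts listed for KLF7. The nearest listed start was inside the gene, with the region 5.74 kb upstream of it. A peak of sc8558 alone stood from 207160141 to 207160582, with a score of 55.13. Among sc8558 peaks of like score, 32.6% were overlapped.

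At KLF13, a regulator of the chemokine gene CCL5 in T cells, both listed places were inside the gene on chromosome 15. The shared region, from 31412651 to 31413341, was 86.2 kb downstream of the start, with scores of 70.32 with ab21061 and 82.93 with sc8558. A peak of ab21061 alone, from 31367232 to 31368147, was higher in its list, at 103.08 (rank 2780). Its nearest sc8558 peak was 44.5 kb away, although 75.4% of ab21061 peaks of like score were overlapped. Of the 3 peaks found with a single antibody at the 8 genes, it was the only one with a score of at least 100.

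KLF3, a repressor that works through CtBP, had its region on chromosome 4 from 38619813 to 38620742, inside the antisense transcript KLF3-AS1 and 43.9 kb from the lower-coordinate end of KLF3. The scores were 73.69 with ab21061 and 57.96 with sc8558. This was the region nearest to the 50 kb limit on its inner side. Just outside the limit, KLF3 had a peak of sc8558 alone at 51.0 kb with a score of 98.28, and KLF13 a peak of sc8558 at 53.3 kb with a score of 53.23.

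KLF9, a glucocorticoid-responsive gene, was far from any peak. Its nearest shared region was 1578 kb away, with scores of 73.6 with ab21061 and 54.84 with sc8558. KLF10, an early TGF-beta response gene, had its nearest shared region at 279 kb, with scores of 71.29 with ab21061 and 82.71 with sc8558, and its nearest ab21061 peak of any kind at 138 kb. With unknown depth, an unlisted region means only that no peak reached the authors' limit there.

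**Figure D2:**
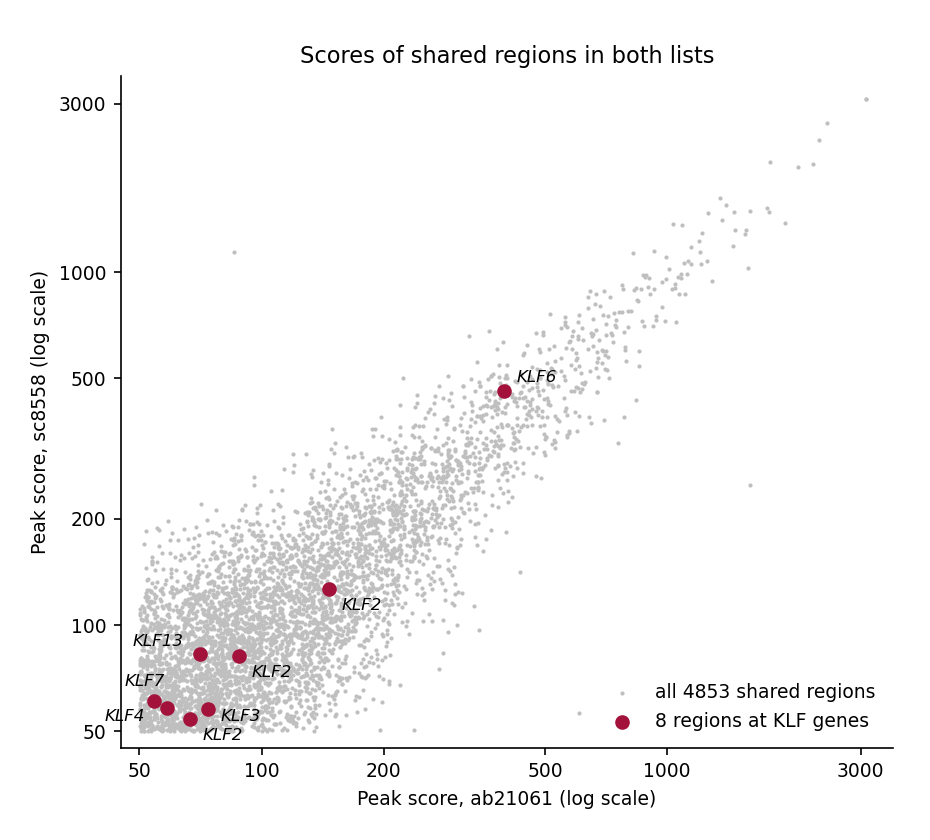
Scores of shared regions, ab21061 on the horizontal and sc8558 on the vertical axis (both log scales). Grey points are all 4853 shared regions and red points the 8 at KLF genes; KLF6 stands at 395.88 with ab21061 and 461.28 with sc8558, the KLF2 end region at 146.8 with ab21061 and 126.52 with sc8558, and the other 6 below 100 in both lists.

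Scores were below 100 in both lists at 6 of the 8 regions, against 33.0% of all shared regions, and at 100 or more in both at 2, against 41.9%. The median score of the peaks at the genes was 73.7 for ab21061, against 82.4 over its full list, and 71.4 for sc8558, against 81.7. Their median width was 880 bp for ab21061, against 776 bp, and 821 bp for sc8558, against 746 bp. Peak midpoints of a pair were a median of 42.0 bp apart, against 69.0 bp over all overlapping pairs.

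Of the peaks at the genes, 8 of 9 from ab21061 were overlapped by the other list (88.9%, exact Clopper-Pearson 95% interval 51.8 to 99.7), against 63.7% of all its peaks. For sc8558 it was 8 of 10 (80.0%, 44.4 to 97.5), against 65.0%. The intervals cover counting error only. They treat peaks as independent, although 3 of the 9 ab21061 peaks lay in the KLF2 window and the same 8 pairs enter both shares. The genes were chosen with these peaks known, so the shares describe these peaks and not KLF genes in general.

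By position, 4 of the 8 regions lay inside a KLF gene and 4 outside. Genes with a region inside were KLF2, KLF6, KLF7 and KLF13, 4 of 8, against 8.43% of all genes. Where both peaks had to reach 100, these were KLF2 and KLF6, 2 of 8, against 4.15%. Within 10 kb of the gene the same 4 of 8 genes had a region, against 12.8%. A region within 1 kb of either end was found at KLF2, 1 of 8, against 2.40%. None of the 6 genes with listed starts had a region within 1 kb of one, against 2.49% of 15843 genes. Within 5 kb of a start were KLF2 and KLF6, 2 of 6, against 4.95%. Genes with a region of 100 or more in both lists within 50 kb were the same pair, 2 of 8, against 12.6%. These positions and scores were known when the genes were chosen, so the shares describe the 8 genes and test nothing.

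The windows of the 8 genes covered 1101 kb and held 7.27 shared regions per Mb, against 1.86 per Mb over the windows of all protein-coding genes. The median gene length was 19.6 kb for the 8 genes and 24.1 kb for all. The median distance from a gene to the midpoint of its nearest shared region was 13.7 kb for the 8 genes and 180 kb for all protein-coding genes. No gene stood near 13.7 kb: 4 had a region inside, and the next was KLF4 at 27.4 kb. The density also counts the regions inside EPS15L1. Both values rest on peaks known when the genes were chosen.

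**Figure D3:**
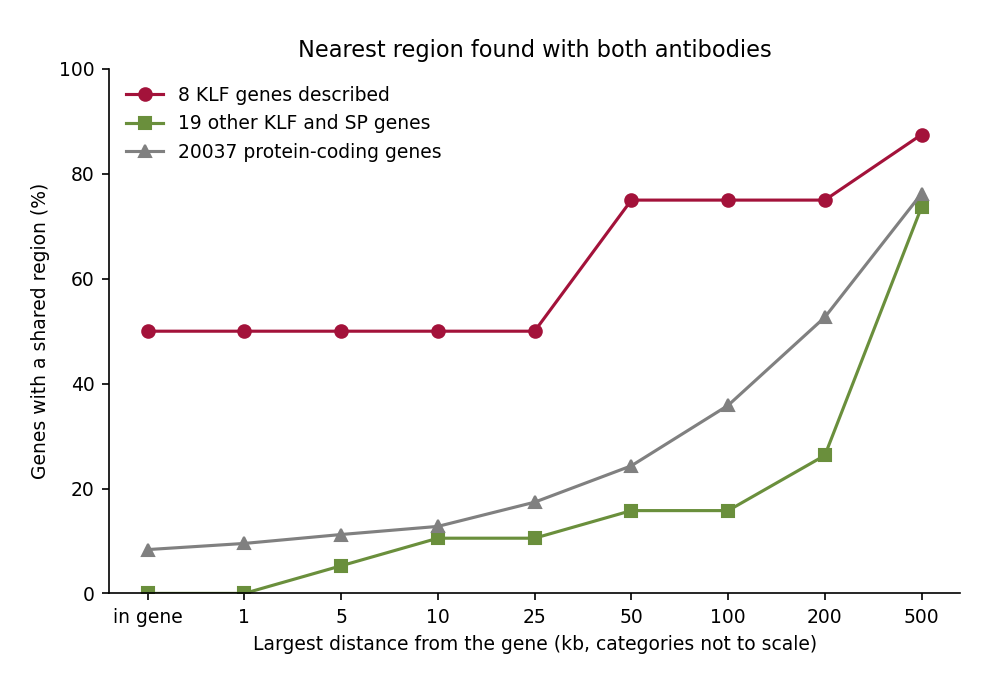
Share of genes with the midpoint of a shared region within a given distance (horizontal axis, kb, categories not to scale; vertical axis, percent of genes) for the 8 KLF genes (red), 19 other KLF and SP genes (green) and all protein-coding genes (grey). At 50 kb the shares are 75.0%, 15.8% and 24.3%, and at 500 kb 87.5%, 73.7% and 76.2%.

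The rest of the family is what remained after the 8 genes chosen on these peaks were taken out, so its counts also depend on that choice. SP genes encode the relatives of the Krüppel-like factors that bind GC boxes. Of the 10 other KLF genes 1 had a shared region within 50 kb, and of the 9 SP genes 2 did. That was 3 of 19 in all, against 24.3% of all protein-coding genes. KLF14 had a region 7.42 kb from the gene, with scores of 68.24 with ab21061 and 114.9 with sc8558. SP3, which encodes a ubiquitous GC-box factor, had one 25.9 kb away that scored 210.85 with ab21061 and 174.5 with sc8558. SP9 had one 3.07 kb away that scored 55.26 with ab21061 and 54.55 with sc8558. None of the 19 had a region inside the gene, against 8.43% of all protein-coding genes, a share at which few of 19 genes would have one. KLF1, the erythroid founding member of the family, had no peak of either list, and neither did KLF5, KLF8, KLF11, KLF12, KLF15, KLF16, KLF17 or KLF18. SP1 and SP7 are neighbours and share 1 peak of ab21061 alone, with a score of 52.46. SP2, SP4, SP5, SP6 and SP8 had no peak of either list. Since the 8 genes were chosen with these peaks known, their contrast with the 19 is no finding.

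Several of the 8 genes stand alone in long stretches without other protein-coding genes. Some shared regions farther out there scored higher than the one within 50 kb. Taken up to the neighbouring protein-coding gene on either side, the intervals had a median of 437 kb, against 80.9 kb for all genes, and held 25 shared regions, 4.92 per Mb. Of these, 19 lay beyond 50 kb, and 9 of the 19 were nearer to the KLF gene than to the gene at the border. Scores were 100 or more in both lists at 8 of the 19, against 41.9% of all shared regions. A shared region was present in 6 of the 8 intervals, against 20.1% over all genes. These 6 are the same genes that had one within 50 kb, and the set was chosen with those peaks known. The intervals also differ in length, so the shares are not a like comparison. No density over the intervals of all genes is given here to set beside 4.92 per Mb.

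KLF4 had the most, 12 regions in 1522 kb between RAD23B and ACTL7B, 11 of them farther than 50 kb and all 11 on the upstream side. The 4 best placed stood at 126, 261, 377 and 667 kb from the gene. At 126 kb, from 107615039 to 107616007, the scores were 313.64 with ab21061 and 234.16 with sc8558, and at 377 kb, from 107866644 to 107867561, they were 291.52 with ab21061 and 300.19 with sc8558. At 261 kb they were 180.52 with ab21061 and 180.87 with sc8558, and at 667 kb 215.18 with ab21061 and 186.78 with sc8558. These 4 were picked as the best placed. In each list they exceeded the region inside the 50 kb window, at 58.53 with ab21061 and 58.13 with sc8558. Among the other far regions, that at 500 kb was lower in both lists, at 55.69 with ab21061 and 53.15 with sc8558. That at 1175 kb was lower with ab21061, at 54.2, but not with sc8558, at 72.94. The rest exceeded the near region in both lists. Of the 11, 6 were nearer to KLF4 than to ACTL7B.

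KLF6 had 5 regions in 1504 kb. The highest, from 3467354 to 3469701, lay 307 kb beyond the finish of the gene, with scores of 667.03 with ab21061 and 685.03 with sc8558, above those inside KLF6, and was number 90 of all shared regions. It was nearer to the bordering gene, LOC124902565, than to KLF6. On the upstream side a region at 347 kb scored 134.46 with ab21061 and 126.75 with sc8558. At KLF7 a region 157 kb upstream, from 207330554 to 207331455, had scores of 303.45 with ab21061 and 166.76 with sc8558, and was nearer to KLF7 than to CREB1. At KLF3 the 3 farther regions were nearer to other genes, the best placed of them at 498 kb with scores of 115.08 with ab21061 and 92.63 with sc8558. At KLF2, KLF9, KLF10 and KLF13 there were none beyond 50 kb in the interval. Peaks this far from a gene have not been tied to it by any measurement here.

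**Figure D4:**
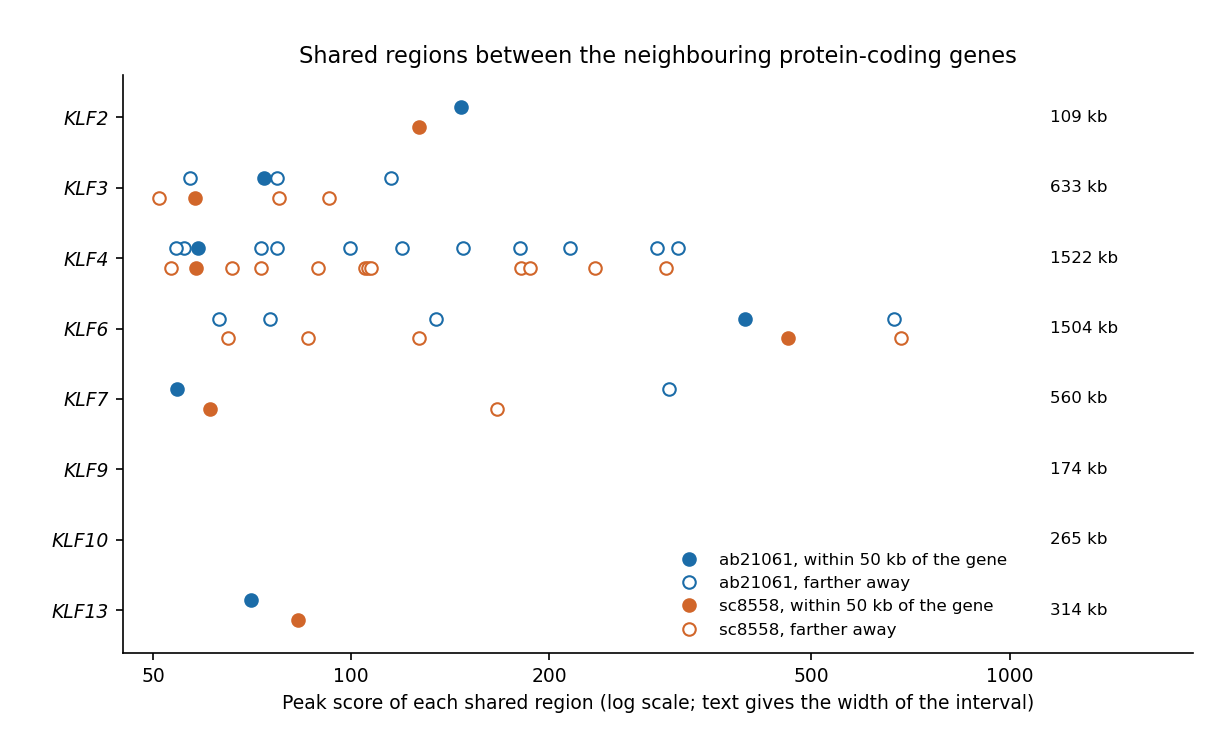
Scores of shared regions (horizontal axis, log scale) between the neighbouring protein-coding genes of each KLF gene (rows), with ab21061 in blue above sc8558 in orange. Filled points lie within 50 kb of the gene and open points farther away, and the text at the right gives the width of the interval in kb; the open points of KLF4 reach 313.64 with ab21061 and those of KLF6 685.03 with sc8558.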

How the data were processed

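Reads had been aligned with Bowtie2 (2.2.9) to hg38 and peaks called by MACS (1.4.2), per the submitters' processing notes, which give no order or options; read filters and a peak-calling control are not stated in the sources at hand. Each deposited peak carries a score that the authors took from their caller, per library and without scaling between libraries. Gene positions, types and promoters with strand came from RefSeq on GRCh38.p14, the same build. Peaks were assigned to genes by midpoint, and overlapping peaks of both lists were merged into shared regions. Genes, families, motifs and alternatives were chosen with earlier results of these data known. All 8 genes are named, with each shared region within 50 kb, none having over 4, the highest peak found with 1 antibody (or all of 100 or more), and every other KLF or SP gene with a shared region. The 5 motifs spelled out with the promoters were counted on both strands in the 250 bases before each start. No genome was used, so peak sequences and exons were not examined. Counting was tested on simulated data. Software was Python 3.11.15 with pandas 2.3.3, numpy 2.4.6 and scipy 1.17.1, and matplotlib 3.10.9 for plots.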

Additional observations from a re-analysis of the deposited data

How the results depend on the processing

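The 7 alternatives, applied to 9 results, gave 60 values, of which 41 stayed within 1.5 times the reported count or within the 95% interval of the reported share. When peaks under 100 were left out, the genes held 3 ab21061 and 2 sc8558 peaks and 2 shared regions; 2 genes had a shared region and 2 had one inside, 100% of the sc8558 peaks were overlapped, 1 other KLF or SP gene had a region, and the share of all genes was 12.6%. Fewer peaks enter there by construction. With a window of 10 kb there were 5 ab21061 and 6 sc8558 peaks and 4 shared regions, and 12.8% of all genes. With 100 kb the share of all genes was 35.9%. Up to the neighbouring genes there were 31 ab21061 and 35 sc8558 peaks, 25 shared regions, 5 other KLF or SP genes and 20.1% of all genes. With overlap of 50% of both peaks the share of all genes was 23.7%. No paired analysis was possible because each antibody has 1 library, and for the same reason none was left out. Unknown depth limits any reading of unlisted or single-antibody peaks.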

Other observations

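The genes most like KLF6 were sought among 3681 protein-coding genes with exactly 1 shared region within 50 kb, by the distance between log2 scores, each taken within its own list, over the 2 libraries. The nearest was UBE4B, which encodes a ubiquitin chain elongation factor, with a region 28.4 kb away scoring 392.41 with ab21061 and 459.09 with sc8558 (distance 0.0144). PUS10 and REL, an NF-kB subunit gene, followed and share 1 region, scoring 404.46 with ab21061 and 448.4 with sc8558 (distance 0.0512). It lies inside REL and 13.4 kb from PUS10. With 2 libraries and no replicate this likeness describes scores only.

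Over promoters of all protein-coding genes, AATC was present in 73.9% of the 387 that overlapped a shared region and in 61.5% of all 22183. For AAATCAC the shares were 4.65% and 2.33%, for CACCC 55.8% and 58.4%, for GGAA 92.8% and 92.5%, and for TGTGGT 8.27% and 9.36%. The promoters were not matched on base composition, and none of the 9 KLF promoters was among the 387.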
